A study of Glycine max with 10 samples.

Results

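The FLOWERING LOCUS T (FT) genes FT2a (Glyma.16G150700), FT2b (Glyma.16G151000), FT5a (Glyma.16G044100), FT1a (Glyma.18G298900) and FT4 (Glyma.08G363100) and the stem growth gene Dt1 (Glyma.19G194300) were followed in soybean leaves. These 6 genes were taken from the 55983 genes of the count table by identifier. The rule does not use their values, but it was set with earlier results of these data known. FT2a and FT5a had at least 914 counts in each of the 10 libraries, FT2b had 9 to 108, and FT4 reached at most 17 counts in a library. FT1a had 1 count over all libraries and Dt1 had 0.

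FT proteins are small phosphatidylethanolamine-binding proteins that are made in leaf veins and move through the phloem to the shoot apex. There they join a bZIP partner of the FD type and switch on floral identity genes, and so act as the mobile flowering signal called florigen. Soybean flowers in response to short days, and its FT family holds members that promote flowering and members that delay it. TERMINAL FLOWER 1 (TFL1) proteins, to which Dt1 belongs, are related to FT and act against it at the shoot apex.

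RNA was sequenced from leaves of a susceptible cultivar, LD12-15838R, and of a resistant cultivar, LD12-15813Ra, which carries the soybean aphid resistance gene Rag1. Control plants, without aphids, were taken from each cultivar on day 1 and on day 11. Plants of the inducer treatment carried 50 biotype 2 aphids as inducer and 15 biotype 1 aphids as response population and were sampled in the same cultivars and days. Plants with 15 biotype 1 aphids and no inducer, called biotype 1 alone here, were sampled at day 11 only. Biotype 2 is virulent on Rag1 plants and biotype 1 is not. Each library pooled the RNA of 3 replicates in equal amounts, so each condition had 1 library, differences between single conditions carry no check by replicates, and the labels give no plant age.

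Library totals lay between 23394065 and 25665558 estimated counts. Levels are given as CPM, a gene's counts per 1000000 counts of the library. In leaf RNA, fewer cells that express a gene and less of its RNA per cell cannot be told apart. The TMM factor of edgeR, which corrects for the share of counts taken by a few genes, was lowest in the library labelled resistant, control, day 1 (0.772) and reached 1.15 in the one labelled resistant, inducer, day 1, so values of these libraries are also given as TMM-scaled CPM where the order changes. Over all genes, 301 differed between the libraries labelled susceptible, day 11 or resistant, day 1 and those labelled susceptible, day 1 or resistant, day 11, in the edgeR fit. Between the labelled cultivars edgeR called 0 genes and DESeq2 called 4, and 613 had an edgeR p under 0.05 before adjustment. With the library labelled resistant, control, day 1 left out, the 301 became 8124, and with another library left out it fell between 70 and 257. This split of the libraries, called the combination of day and cultivar label, was tested beside day, cultivar label and treatment. An exchange of the cultivar labels on 1 of the days and a day difference that depends on cultivar cannot be told apart in this design, which bears on every day and cultivar label difference given here. The leaf label was checked with 2 identifiers only, fixed as leaf markers without an annotated name. Glyma.13G046200 ranged from 2278 to 11479 CPM and Glyma.19G046800 from 5470 to 19284 CPM.

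FT2a promotes flowering and is among the best studied florigen genes of soybean. In the libraries labelled susceptible, FT2a was at 75.1 CPM in control and 82.6 CPM with the inducer at day 1, and at 38.3 CPM in control, 54.0 CPM with biotype 1 alone and 53.3 CPM with the inducer at day 11. In the libraries labelled resistant it was at 66.9 CPM in control and 57.4 CPM with the inducer at day 1, and at 84.5 CPM in control, 79.3 CPM with biotype 1 alone and 118 CPM with the inducer at day 11. All 3 susceptible libraries of day 11 thus lay below both of day 1, and all 3 resistant libraries of day 11 lay above both of day 1. With TMM scaling the library labelled resistant, control, day 1 rose to 86.6 CPM, above 2 of the 3 resistant libraries of day 11 (72.8 and 82.4 CPM), and that order no longer held. How many of all genes put the days in such an order was not counted. For the combination of day and cultivar label, 23.3% of all genes had an unadjusted edgeR p under 0.05. The highest FT2a value was 3.09 times the lowest by CPM and 2.49 times by TMM-scaled CPM.

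The order of FT2a was led by the library labelled resistant, inducer, day 11 and closed by the library labelled susceptible, control, day 11, whose 95% Poisson intervals (114 to 123 CPM and 35.8 to 40.8 CPM) met no other. The 84.5, 82.6 and 79.3 CPM that follow the highest value overlapped in their intervals, as did 79.3 with 75.1 CPM. The 57.4, 54.0 and 53.3 CPM near the low end overlapped as well. These intervals cover counting error only and say nothing of the spread between plants of 1 condition.

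FT2b lies on the same chromosome as FT2a, as its identifier shows, and also promotes flowering. In the libraries labelled susceptible, FT2b was at 4.59 CPM (108 counts) in control and 3.47 CPM (88 counts) with the inducer at day 1. At day 11 it was at 0.879 CPM (21 counts) in control, 0.374 CPM (9 counts) with biotype 1 alone and 0.684 CPM (16 counts) with the inducer. In the libraries labelled resistant it was at 3.25 CPM (80 counts) in control and 1.68 CPM (40 counts) with the inducer at day 1, and at 3.79 CPM (92 counts) in control, 3.21 CPM (81 counts) with biotype 1 alone and 4.17 CPM (107 counts) with the inducer at day 11. The 3 libraries labelled susceptible, day 11 were the lowest, the library labelled resistant, inducer, day 1 was next, and the other 6 lay together at 3.21 CPM or above. With TMM scaling the library labelled resistant, control, day 1 moved to 4.21 CPM, above the 3 resistant libraries of day 11 (2.95 to 3.70 CPM), and the 4 lowest libraries stayed the 4 lowest.

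The 95% Poisson interval of FT2b in the library labelled resistant, inducer, day 1 was 1.20 to 2.29 CPM and did not reach that of the next library above it, resistant, biotype 1 alone, day 11 (2.55 to 3.99 CPM). It overlapped the interval of the library labelled susceptible, control, day 11 (0.544 to 1.34 CPM). Among the 6 high libraries neighbours in the order were not separated by counting error. FT2b varied more than FT2a. Its highest value was 12.3 times its lowest, and the SD of its log2(CPM + 0.5) over the libraries was 0.93, above that of 92.6% of the 37468 genes tested, while FT2a had an SD of 0.45, above that of 59.1%. The added 0.5 CPM shrinks the SD of genes near 0, and FT2b, with fewer counts, carries more counting error than FT2a. The ranks are not corrected for either.

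FT5a, another florigen gene that promotes flowering, was steadier. In the libraries labelled susceptible it was at 77.8 CPM in control and 88.5 CPM with the inducer at day 1, and at 61.9 CPM in control, 98.0 CPM with biotype 1 alone and 65.1 CPM with the inducer at day 11. In the libraries labelled resistant it was at 65.0 CPM in control and 116 CPM with the inducer at day 1, and at 82.6 CPM in control, 86.1 CPM with biotype 1 alone and 95.6 CPM with the inducer at day 11. The values of the days overlapped, and so did those of the labelled cultivars. The highest value was 1.88 times the lowest by CPM and 1.48 times by TMM-scaled CPM, and the SD of log2(CPM + 0.5) was 0.29, above that of 22.7% of the genes tested. By CPM the library labelled resistant, control, day 1 was next to the lowest, but TMM scaling moved it to 84.1 CPM, within the range of the 3 resistant libraries of day 11 (79.0 to 84.8 CPM).

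**Figure D1:**
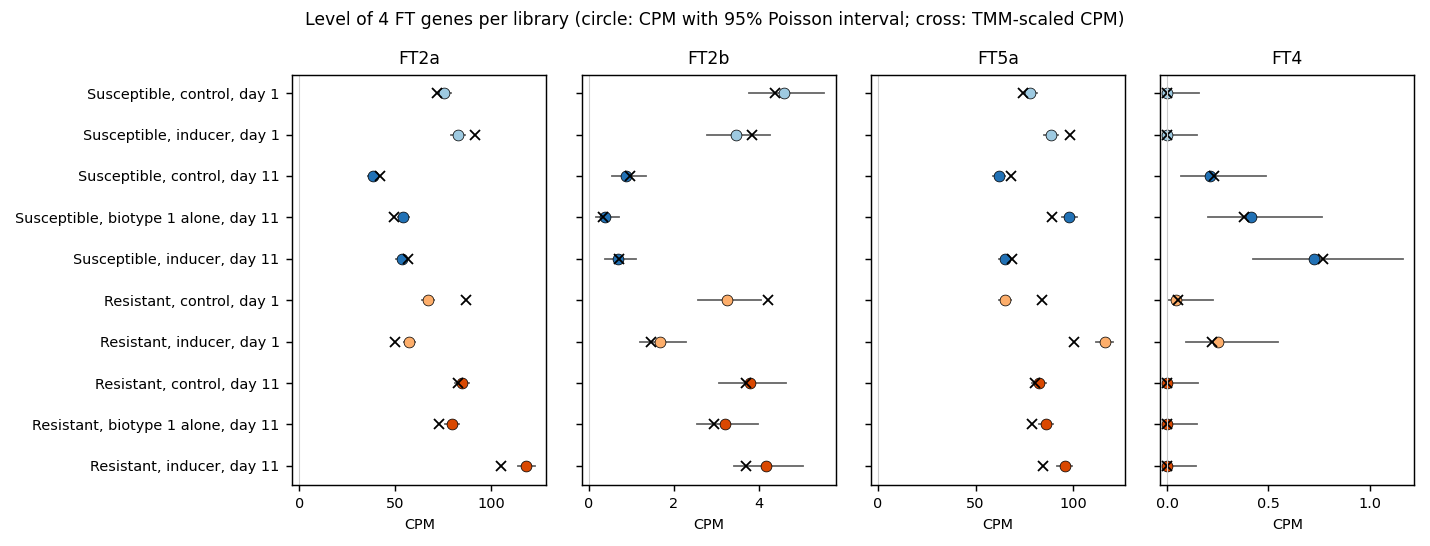
Level of FT2a, FT2b, FT5a and FT4 in each of the 10 libraries, in CPM on a linear axis per gene. Circles are CPM with a 95% Poisson interval (counting error only), coloured by labelled cultivar and day, and crosses are TMM-scaled CPM. The 3 libraries labelled susceptible, day 11 hold FT2b at 0.374 to 0.879 CPM and 6 others at 3.21 CPM or above, while FT5a spans 61.9 to 116 CPM without such a gap.

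FT4 delays flowering, in contrast to FT2a and FT5a. It had 5 counts in the library labelled susceptible, control, day 11, 10 with biotype 1 alone and 17 with the inducer, which are 0.209, 0.416 and 0.727 CPM. It had 6 counts (0.252 CPM) under the label resistant, inducer, day 1 and 1 count (0.0407 CPM) under resistant, control, day 1. The other 5 libraries had 0 counts, which allows a level of up to 3 counts, or 0.117 to 0.127 CPM. Every count of FT4 therefore fell in the libraries labelled susceptible, day 11 or resistant, day 1. Summed over those 5 libraries, FT4 had 39 counts (0.326 CPM). That is 13.5 times the 0.0242 CPM that 3 counts over the other 5 libraries together would give, or 14.3 times with TMM sizes. The counting error of the 39 counts is not included, so neither value is a lower bound. FT4 passed the filter of over 0.5 CPM through 1 library only, the one labelled susceptible, inducer, day 11, so tests that set that library against others had a gene retained for being high there, and no FT4 test is read as a result.

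FT1a, which also delays flowering, had 1 count in the library labelled susceptible, inducer, day 11 (0.0427 CPM, 95% Poisson interval 0.00108 to 0.238 CPM) and 0 in the other 9. Dt1, whose product keeps the shoot tip growing and so gives an indeterminate stem, had 0 counts in all 10 libraries, which together held 243787244 counts and so allow a level of up to 0.0123 CPM. Neither gene was detectable as a leaf transcript at this depth beyond that 1 count, and neither was tested. Dt1 is known as a gene of the shoot apex, a tissue that was not sampled.

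The same 4 libraries stood at the ends of 3 genes. The libraries labelled susceptible, control, day 11, susceptible, biotype 1 alone, day 11, susceptible, inducer, day 11 and resistant, inducer, day 1 had the 4 lowest FT2a values, the 4 lowest FT2b values and the 4 highest FT4 values, by CPM and by TMM-scaled CPM. On the TMM scale FT2a was at or below 56.3 CPM in these 4 and at or above 71.8 CPM in the other 6, and FT2b was at or below 1.46 CPM and at or above 2.95 CPM. FT4 was at or above 0.219 CPM in the 4 on that scale and at or below 0.0527 CPM in the others. That order of FT4 rests on 5 counts (susceptible, control, day 11) and 6 (resistant, inducer, day 1) against 1 (resistant, control, day 1). By CPM their Poisson intervals overlapped (0.0679 to 0.488 and 0.0926 to 0.55 against 0.00103 to 0.227 CPM). FT4 also passed the filter only through susceptible, inducer, day 11, which is among the 4, so its order is not read as a result. FT5a did not follow FT2a and FT2b, since only 2 of its 4 lowest libraries were among these 4. This set of libraries was read from the values and no test was made of it. How many of all genes split these libraries in the same way was not counted. Without the library labelled resistant, control, day 1, the combination of day and cultivar label sets these 4 against the rest. The edgeR fit then called 21.7% of all genes.

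**Figure D2:**
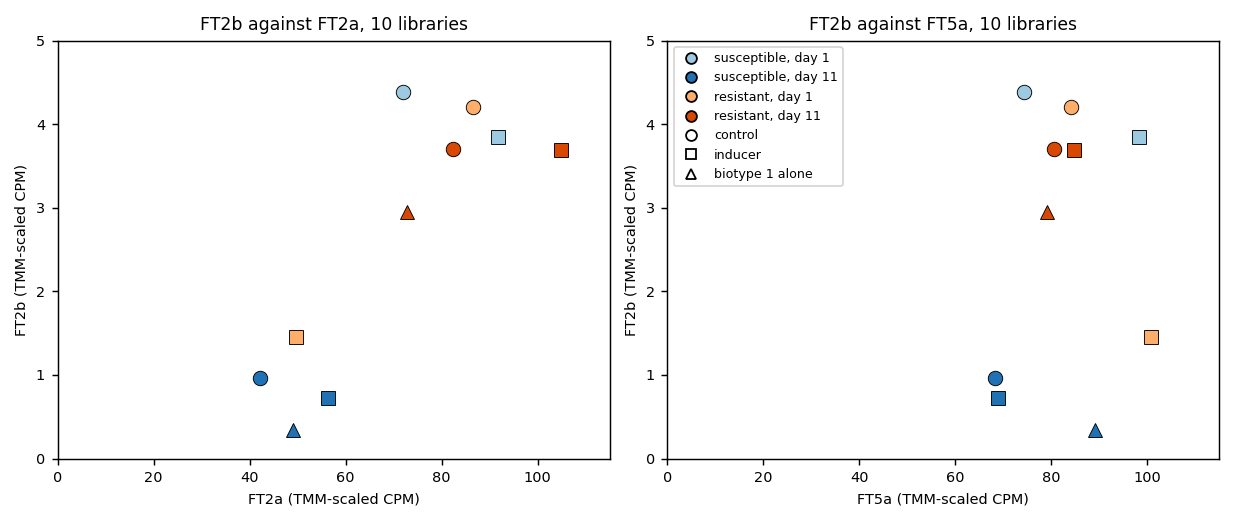
FT2b against FT2a (left) and against FT5a (right), in TMM-scaled CPM, 1 point per library, coloured by labelled cultivar and day and shaped by treatment. In the left panel 4 libraries with FT2b at 1.46 CPM or below also have FT2a at 56.3 CPM or below, and in the right panel the same 4 spread over FT5a values from 68.2 to 101 CPM.

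Over the 10 libraries the log2(CPM + 0.5) of FT2a and FT2b had a Pearson's r of 0.80 and a Spearman's rho of 0.81. For FT2a with FT5a they were 0.39 and 0.35, and for FT2b with FT5a 0.11 and -0.018. These 10 points share depth and conditions and are given as a description. FT2a and FT2b are close relatives, and Salmon divides reads that fit more than 1 transcript. All 10 values of FT2a, 3 of FT2b and 6 of FT5a were fractional, which marks divided reads, and with which transcripts they were shared was not tested.

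The share of FT2b in the summed counts of FT2a and FT2b does not depend on library scaling. It was 5.75% (95% exact binomial interval 4.74 to 6.90%) in the library labelled susceptible, control, day 1 and 4.03% (3.24 to 4.94%) with the inducer. At day 11 it was 2.25% (1.40 to 3.41%) in control, 1.27% (0.726 to 2.05%) with the inducer and 0.688% (0.315 to 1.30%) with biotype 1 alone under the susceptible label. Under the resistant label it was 4.64% in control and 2.85% with the inducer at day 1, and 4.30%, 3.89% and 3.41% in control, biotype 1 alone and inducer at day 11. Under the susceptible label the intervals of day 11 did not reach those of day 1, except that the day 11 control overlapped the day 1 inducer library. Under the resistant label the 2.85% (2.04 to 3.86%) of the day 1 inducer library was the lowest. Its interval overlapped those of all 3 libraries of day 11 and that of the day 1 control (3.69 to 5.74%). The ratio of FT2a to FT5a counts, which is not scaled for transcript length, ranged from 0.494 to 1.24, and both ends were inducer libraries with the resistant label, of day 1 and of day 11.

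**Figure D3:**
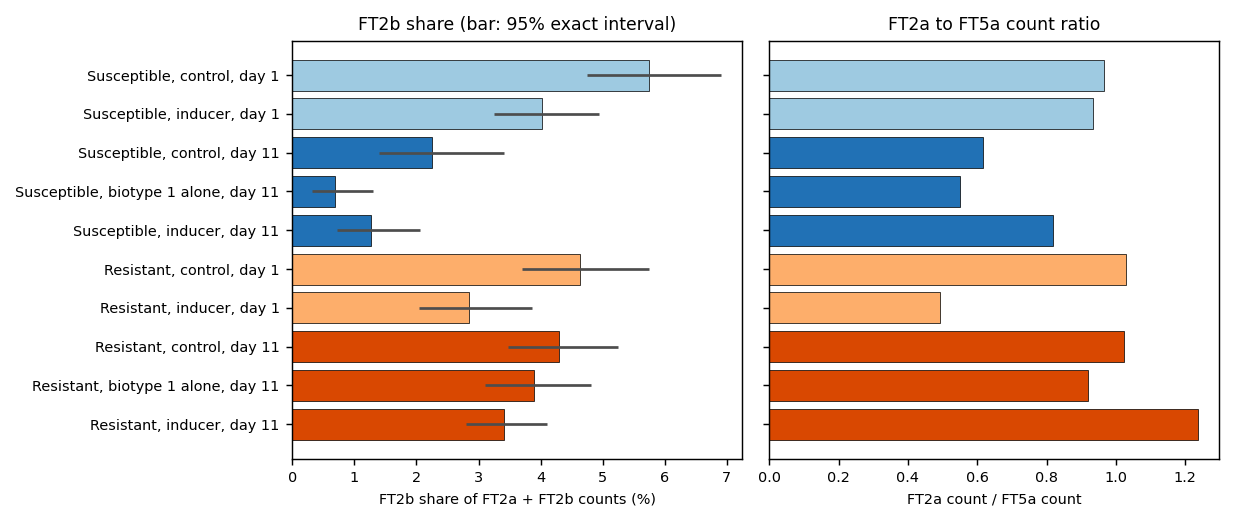
Left, share of FT2b in the counts of FT2a and FT2b together, in percent, with 95% exact binomial intervals. Right, ratio of FT2a to FT5a counts. Bars are 1 per library and start at 0, coloured by labelled cultivar and day. The FT2b share runs from 0.688% to 5.75% and the FT2a to FT5a ratio from 0.494 to 1.24.

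FT2a and FT2b were compared between day 1 and day 11 within each labelled cultivar. Under the susceptible label, FT2b at day 1 was 5.22 times its level at day 11 in control and 5.07 times with the inducer, and FT2a was 1.96 and 1.55 times. Under the resistant label with the inducer the order was the other way, with day 11 at 2.48 times day 1 for FT2b and 2.06 times for FT2a. In the resistant control the ratio of day 11 to day 1 was 1.17 for FT2b and 1.26 for FT2a by CPM, and 0.878 and 0.951 by TMM-scaled CPM, so its direction depended on the scaling. FT5a at day 11 was at 0.796 and 0.736 times day 1 in the susceptible control and inducer libraries and at 0.823 times in the resistant inducer library. In the resistant control its ratio was 1.27 by CPM and 0.957 by TMM-scaled CPM.

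The spread for a test came from the residuals of 1 edgeR quasi-likelihood fit over all 37468 genes that passed the filter, with terms for day, cultivar label, their combination and treatment and 4 residual degrees of freedom. Of the 6 genes, 4 were tested. For the combination of day and cultivar label, the fitted log2 difference of the libraries labelled susceptible, day 11 or resistant, day 1 from the others was -1.55 for FT2b (standard error 0.32, edgeR adjusted p = 0.0795) and -0.53 for FT2a (standard error 0.23, edgeR adjusted p = 0.231). For FT5a it was -0.0084 (standard error 0.17, edgeR adjusted p = 0.981). No member passed the adjusted threshold of 0.05 by edgeR (0 of 4), beside 0.803% of all genes tested. At an unadjusted p under 0.05 were FT2b and FT4, beside 8734 or 23.3% of all genes, and DESeq2 called these 2, beside 4391 or 11.7%. FT4 was retained through a library on its high side of this comparison, so neither its p nor its call is read as a result.

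The call for FT2b lay close to the threshold and changed with the processing. Its edgeR adjusted p was 0.0491 with library totals in place of TMM and its DESeq2 adjusted p was 0.00106, with log2 differences of -1.67 and -1.55. Library totals gave calls for 0.958% of all genes. Without the library labelled resistant, control, day 1, the edgeR fit called FT2b (log2 difference -1.91, adjusted p = 0.00965) and FT2a (-0.85, adjusted p = 0.0206), in a fit that called 21.7% of all genes. With any 1 of the other libraries left out no member was called, and FT2b kept a negative difference with each of the 10 libraries left out in turn (-1.91 to -1.25). Leaving it out was the only test made of that library's part.

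For day 11 against day 1, averaged over both cultivar labels, the fitted log2 difference was -0.90 for FT2b (standard error 0.34), -0.14 for FT2a (0.26) and -0.24 for FT5a (0.19). For the resistant against the susceptible label it was 0.90 for FT2b (standard error 0.31), 0.28 for FT2a (0.23) and 0.11 for FT5a (0.17). None of the 4 genes tested passed in either comparison, where the edgeR adjusted p was 1 for each of them and 0.00% of all genes were called. FT2b alone of the 4 had an unadjusted p under 0.05, in both, beside 1.01% of all genes for day and 1.64% for the label. Over all genes, 378 had an unadjusted p under 0.05 for day and 613 for the label, and DESeq2 called 6 and 4, with 0 members among them. The FT4 differences of these 2 comparisons are not given, since FT4 had 0 counts in all libraries of 2 combinations of label and day.

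For the inducer against control, averaged over the 4 combinations of label and day, the fitted log2 difference was 0.084 for FT2a (standard error 0.26), -0.54 for FT2b (0.34) and 0.19 for FT5a (0.19), with edgeR adjusted p of 0.955, 0.727 and 0.820. For biotype 1 alone against control it was -0.13 for FT2a (0.34), -0.99 for FT2b (0.47) and 0.25 for FT5a (0.25), with adjusted p of 0.977, 0.963 and 0.963. No member was called in either comparison by edgeR or DESeq2 and none had an unadjusted p under 0.05 in edgeR, against 0.00% of all genes called by edgeR. Over all genes 2852 and 1527 had an unadjusted edgeR p under 0.05, and DESeq2 called 131 and 11. With library totals in place of TMM the median of all genes moved by 0.14 and 0.20 on the log2 scale in these comparisons, and the FT2a difference for biotype 1 alone changed sign to 0.077. Both comparisons share the control libraries. Biotype 1 alone was sampled at day 11 only, and the fit takes each treatment difference as equal at both days.

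**Figure D4:**
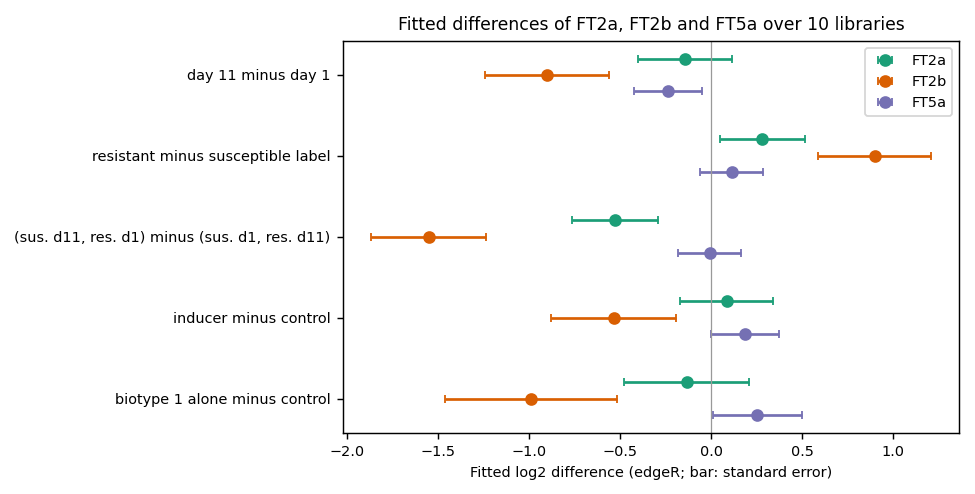
Fitted log2 differences of FT2a, FT2b and FT5a from the edgeR fit over 10 libraries, with bars of 1 standard error, for the 5 comparisons. FT2b lies farthest from 0 in each, at -1.55 for the combination of day and cultivar label, and no point passed the adjusted threshold of 0.05.

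Pairs of single libraries were compared with Kal's z-test, which weighs counting error alone and so compares those libraries and not the conditions. A gene was called at a Benjamini-Hochberg adjusted value under 0.05 over all genes and a ratio of at least 2. At day 1 no member was called between inducer and control, under the susceptible label (12.1% of all genes called) or the resistant label (42.4%). FT5a in the resistant pair was at 1.79 times control by CPM and 1.20 times by TMM sizes, and FT2b at 0.518 and 0.346 times, the latter past the 2-fold minimum and called. Between inducer and control at day 11, FT4 was called under the susceptible label (17 against 5 counts, ratio 3.47, with 14.9% of all genes called), in the library through which it was retained, and no member was called under the resistant label (9.56%).

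FT2a was 1.39 times control with the inducer at day 11 under the susceptible label and 1.40 times under the resistant label (1.34 and 1.27 with TMM sizes), below the 2-fold minimum. At day 1 it was 1.10 times control under the susceptible label and 0.858 times under the resistant label. With TMM sizes these day 1 ratios were 1.28 and 0.574, also short of 2-fold. Over the 4 pairs of inducer and control, FT2a was higher with the inducer in 3, FT5a in 4, and FT2b in 1 (0 with TMM sizes). With biotype 1 alone against control at day 11, FT2b was called lower under the susceptible label (9 against 21 counts, ratio 0.426, Kal's adjusted p = 0.0477; 14.7% of all genes called). FT5a was at 1.58 times control in that pair (1.30 with TMM sizes), and no member was called under the resistant label (6.50%). Between inducer and biotype 1 alone at day 11 no member was called under the susceptible (15.0%) or the resistant label (6.40%), where FT2a was at 0.986 and 1.49 times. In all, 2 of the 28 tests that had counts made a call with library totals, 1 of them that of FT4, and both rest on 21 counts or fewer in each library. With TMM sizes there were 3 calls. The added one was FT2b in the resistant pair of day 1 (40 against 80 counts). On that scaling 6.48% to 35.0% of all genes were called in a pair.

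Further genes of the pathway were read from a list of 26 identifiers, written as 7 relatives of FT and TFL1, 11 photoperiod genes upstream and 8 partners and targets. No annotation used here pairs these identifiers with names, so they are given by identifier and the list itself was not checked. Of the 26, 15 passed the filter and were tested, 2 of the relatives, 8 of the upstream genes and 5 of the partners and targets. None was called in any of the 5 comparisons (0 of 15 by edgeR), and 2 had an unadjusted p under 0.05, both for the combination of day and cultivar label, where 23.3% of all genes did, so the count is not a result about the list. The median log2 difference for that combination was 0.50 over the 8 upstream genes and 0.20 over the 5 partners and targets, beside 0.0047 over all genes. The -0.27 over the 4 members tested includes FT4, whose test is not read. Among the 8 upstream genes, 1 also passed the filter through 1 library only, on its high side for this comparison. These medians are therefore not compared between lists.

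Glyma.02G069500, listed as a relative, had a mean of 19.2 CPM. Its 4 lowest values, 7.70, 8.16, 9.52 and 11.7 CPM, were in the libraries labelled susceptible, control, day 11, susceptible, inducer, day 11, susceptible, biotype 1 alone, day 11 and resistant, inducer, day 1. Its other 6 values lay between 16.3 and 36.2 CPM. Its log2 difference for the combination was -1.16 (standard error 0.32, edgeR adjusted p = 0.112), and it was 1 of the 2 with an unadjusted p under 0.05. Glyma.08G363200, the other relative tested, was between 0.374 and 1.20 CPM in the same 4 libraries and between 1.60 and 3.03 CPM in the other 6, with an edgeR adjusted p of 0.356. These 4 libraries were read from the values of the members. How many of all genes show such a gap was not counted, so it is not a result about the relatives. The 5 relatives that did not pass the filter stayed at or below 0.429 CPM in every library, and 2 of them had 0 counts in all 10.

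Glyma.10G221500, listed as an upstream gene, ranged from 101 to 400.4 CPM, with a log2 difference of 0.50 for the combination (edgeR adjusted p = 0.256). Glyma.18G278100 ranged from 61.2 to 188 CPM, with a log2 difference of 0.51 (edgeR adjusted p = 0.206), and it was the other gene with an unadjusted p under 0.05. Of the 11 upstream genes, 3 did not pass the filter, with 4, 14 and 26 counts over all libraries.

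The genes most like each member were ranked by Pearson's r of log2(CPM + 0.5) over the 10 libraries, among about as many candidates for each (22065 for FT2a and FT5a, 22066 for FT2b, all with a mean of at least 5 CPM). For FT2a they were Glyma.08G007100 (r = 0.99), Glyma.04G171200 (0.99) and Glyma.05G025200 (0.98), and 2.77% of the candidates had an r above 0.9. For FT2b they were Glyma.01G077900 (0.97), Glyma.20G119600 (0.97) and Glyma.13G066900 (0.96), with 1.07% of the candidates above 0.9. For FT5a they were Glyma.12G009100 (0.98), Glyma.15G055100 (0.97) and Glyma.18G234200 (0.97), with 0.267% above 0.9. By CPM, more candidates thus shared the pattern of FT2a than that of FT5a. TMM scaling was not used for these r, and the share for other genes was not taken. No names are paired with these identifiers here.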

How the data were processed

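Reads were trimmed by the authors (Trimmomatic 0.36) and assigned by Salmon 0.9.1 to the primary transcripts of Wm82.a2.v1. The deposited values are estimated counts per gene, not scaled for library size or transcript length, and were rounded to whole numbers. The sources used here do not give Salmon's options on strand and bias. Transcript lengths were not used, so a CPM or a count ratio compares libraries and does not rank genes. Of the table's identifiers 0 matched the reference genes of Glycine_max_v4.0. The names of the 6 genes were therefore not checked against an annotation, and lists and tissue markers planned by gene description were not run.

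A gene was retained where at least 1 library exceeded 0.5 CPM (37468 genes). Tests used R 4.3.3 and edgeR 4.0.16 (TMM, robust quasi-likelihood test, Benjamini-Hochberg adjustment over all retained genes, threshold 0.05). Each coefficient is a log2 difference, and its standard error is the size of the difference divided by the root of F. DESeq2 1.42.0, library totals, other filters, an additive model and each library left out were alternatives. Figures used matplotlib 3.10.9 and intervals scipy 1.17.1. The scripts were tested on simulated data. A count of 0 allows up to 3 counts, and 95% intervals cover counting error only. Named genes were the 6 members, pathway list genes averaging 1 CPM or more and, for each member at that level, the 3 genes of highest Pearson's r that averaged 5 CPM or more. The members, the lists and the model's combination term were chosen with earlier results of these data known.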

Additional observations from a re-analysis of the deposited data

How the results depend on the processing

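Of the 4 genes tested, edgeR called 0 for day, cultivar label, inducer and biotype 1 alone, and DESeq2, library totals, both other filters, the additive model and each library left out gave 0 as well. For the combination of day and cultivar label the count was 0, but 1 with library totals (0.958% of all genes called), 2 with DESeq2 (11.7%) and between 0 and 2 with 1 library left out, where 2 was reached without the library labelled resistant, control, day 1 (21.7%). The 2 of DESeq2 were FT2b and FT4, and the FT4 call is not read as a result. The cause of these changes in the count was not tested. Kal's z-test made 2 calls over the pairs, and 3 with TMM sizes (6.48% to 35.0% of all genes called in a pair). Without the 2-fold minimum it made 15, where 34.6% to 76.0% of all genes were called in a pair. It made 1 with over 0.5 CPM required in at least 4 libraries (5.89% to 41.2%), a filter that removes FT4. Values close to 0 changed sign. FT2a for biotype 1 alone was 0.077 with library totals, and FT5a for the combination was 0.0058 with the 4-library filter. With 1 library left out, FT2a ranged from -0.41 to 0.18 for day, -0.041 to 0.56 for cultivar label, -0.041 to 0.39 for the inducer and -0.32 to 0.076 for biotype 1 alone, and FT5a from -0.094 to 0.065 for the combination. FT4 could not be fitted without the library labelled susceptible, inducer, day 11 or with the 4-library filter, since it then failed the filter. No paired analysis was possible because each condition had 1 library and the labels give no replicate numbers to pair. Inducer and control were compared within the 4 combinations of label and day. Depth limits FT2b and FT4, with 9 to 108 and 0 to 17 counts a library, more than FT2a and FT5a.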
